A study of Mus musculus with 12 samples.

Results

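The 9 genes described here encode parts of the Z-disc, the titin filament and the M-band of striated muscle. They are Actn2, Actn3, Ttn, Lmod2, Myoz2, Myom1, Des, Smpx and Ankrd1. Every probe set that the platform annotation gave to 1 of these symbols was taken, whatever its signal, which yielded 12 probe sets of the 22626 tested and 9 of the 12393 genes measured. Ttn, Des and Ankrd1 had a pair of probe sets each, and the brighter of the pair stood for the gene.

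Mouse embryonic fibroblasts (MEFs) of the C57BL/6 strain had been transduced with lentiviruses whose transgenes answer to doxycycline through the transactivator M2rtTA. The negative control carried M2rtTA alone. TF group 1 carried M2rtTA with GATA4, TBX5 and MEF2C. TF group 2 carried these and Mesp1 and SMARCD3, and TF group 3 carried all of those and MYOCD and SRF. All 4 groups were kept with doxycycline for 7 days and had 3 arrays each, called biological replicates by the labels. The study's medium also held additional serum and valproic acid, a histone deacetylase inhibitor, from the start of induction. By the study's methods the factors were human sequences except for mouse Mesp1, and each array measured the RNA of a whole, unsorted culture. In such cultures fewer cells of a type and less RNA per cell cannot be told apart. The study asked what the added factors do to the cardiac program of fibroblasts, and the comparisons below ask it of these genes.

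In striated muscle the sarcomere is bounded by Z-discs, where α-actinins cross-link the thin actin filaments of neighbouring sarcomeres. Titin spans from the Z-disc to the M-band in the middle, where myomesin ties the thick filaments together. Leiomodin sits at the pointed ends of thin filaments, calsarcin and ankyrin repeat proteins dock on the Z-disc and on titin, and desmin filaments link the Z-discs of neighbouring myofibrils. Fibroblasts contain actin bundles but no sarcomeres.

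The arrays shared a trimmed mean signal of 500.2, and each had 20.4% to 24.1% of its probe sets under a signal of 32 (5 on the log2 scale), which is used here as a floor. Where the lower of a pair of groups had a mean below it, the fold was taken against 32 and is a lower bound, and where both groups lay below it no fold is given. Arrays of 1 group correlated at 0.96 to 0.97 over all probe sets, and arrays of different groups at 0.92 to 0.96. The delivered mouse factor followed the labels, since the log2 signal of Mesp1 averaged 6.97 in control arrays, 6.85 in TF group 1, 11.03 in TF group 2 and 10.56 in TF group 3. Calls of higher or lower rest on limma, with a Benjamini-Hochberg adjusted p under 0.05 over all 22626 probe sets and a fold over 1.5.

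Of the 9 genes, 3 were called higher with the 3 factors of TF group 1 and none was lower. In TF group 2 and in TF group 3, 7 were higher and none was lower. At an unadjusted p under 0.05, limma had none of the 9 lower in any TF group either. Over all genes measured, 15.1%, 15.3% and 14.7% were called higher in the 3 TF groups and 8.93%, 10.1% and 9.84% lower. The 9 genes were chosen with earlier results of these data known, so setting them against all genes is a description and not a test. The median log2 change of the 9 genes was 0.49 in TF group 1, 2.83 in TF group 2 and 1.45 in TF group 3, against 0.07, 0.06 and 0.05 over all genes. With signals under the floor set to it, these medians were 0.22, 1.58 and 1.08. Smpx, Actn3 and Myoz2 were higher in all 3 TF groups, Ttn, Des and Ankrd1 in TF groups 2 and 3, Lmod2 in TF group 2 and Myom1 in TF group 3. Actn2 was called in none. In TF group 3 Myoz2 was called with both group means below the floor. The calls of Ttn in TF group 3 and of Des rested on the brighter probe set alone. When the arrays were scaled to their poly-A spikes instead, the median change of all probe sets moved to -0.84, -0.69 and -0.74, and the 9 genes then gave 3 higher and 1 lower in TF group 1, 6 higher and 1 lower in TF group 2 and 4 higher and 0 lower in TF group 3. The shares of all genes called under that scaling were not counted. The mean log2 spike signal was 7.79, 6.99 and 7.26 on the control arrays and 8.03 to 8.28 on the TF arrays. Its spread among the controls limits every value scaled to it.

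**Figure D1:**
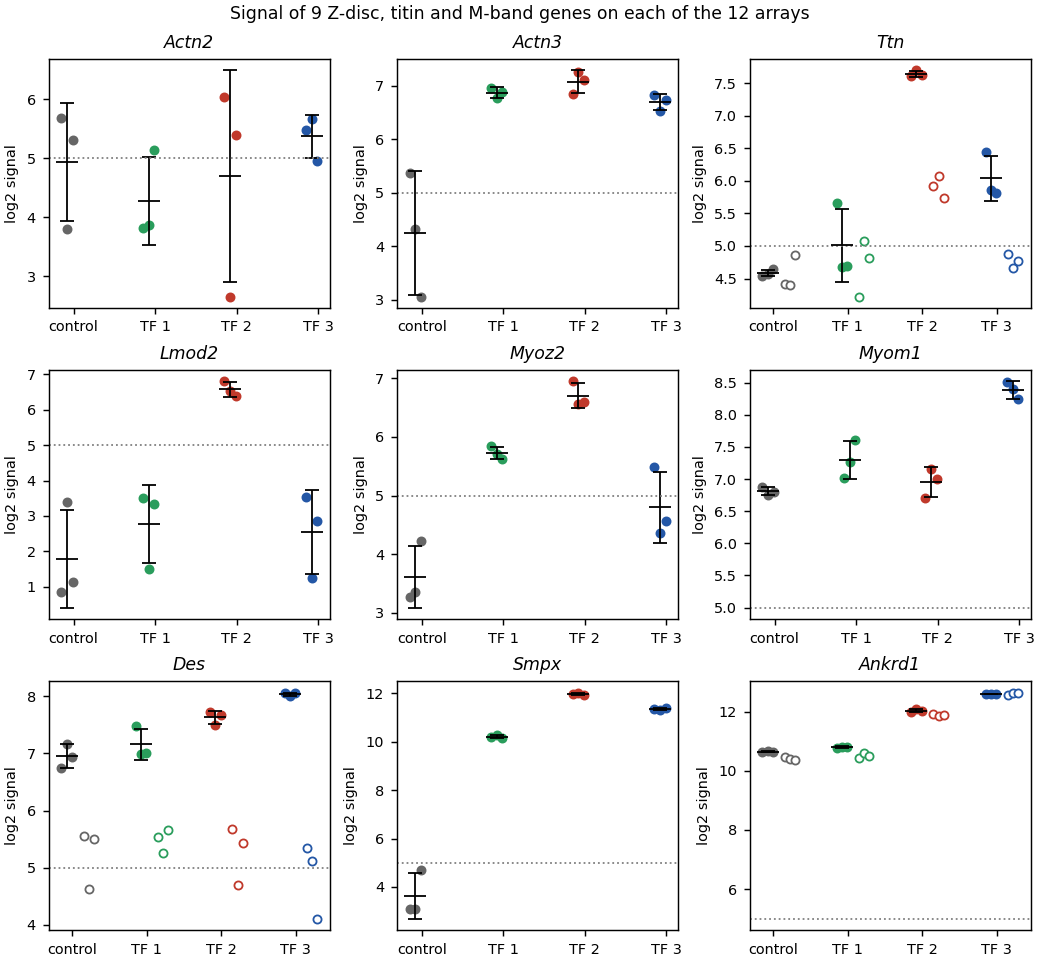
Log2 signal of each of the 9 genes (vertical axes) on the 12 arrays, by group (horizontal axes; TF 1 to TF 3 stand for TF groups 1 to 3). Filled points are the arrays of the probe set that stands for the gene, with the group mean and SD (n = 3), open points are those of the second probe set of Ttn, Des and Ankrd1, and the dotted line is the floor of 5. Smpx lies between 10.14 and 12.02 in the TF groups and under the floor in the negative control, whereas the groups of Actn2 overlap.

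Among the Z-disc scaffold genes, 1 of the 2 muscle α-actinins was called and the other was not. The difference between them was not tested. Actn3, the α-actinin of fast muscle fibres, had log2 signals of 5.38, 4.32 and 3.06 in the negative control, 6.96, 6.77 and 6.89 in TF group 1, 6.85, 7.27 and 7.12 in TF group 2, with 6.84, 6.54 and 6.74 in TF group 3. All 9 TF arrays lay above all 3 control arrays. The log2 change against the negative control was 2.62 in TF group 1, 2.83 in TF group 2 and 2.45 in TF group 3 (SE 0.46 each), or at least 3.67-, 4.22- and 3.26-fold, with limma adjusted p of 0.0013, 0.00077 and 0.0019. No comparison of TF groups was called for Actn3, whose log2 difference was 0.20 between TF groups 2 and 1 and -0.37 between TF groups 3 and 2.

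Actn2, the α-actinin of cardiac and skeletal Z-discs, had log2 signals of 5.69, 3.80 and 5.31 in the negative control, 3.82, 3.87 and 5.13 in TF group 1, 6.03, 2.66 and 5.39 in TF group 2, with 5.48, 5.67 and 4.96 in TF group 3. The groups overlapped, and in TF group 2 the arrays ran from the lowest to the highest of the 12. The log2 change was -0.66 in TF group 1 (95% confidence interval -2.55 to 1.24), -0.24 in TF group 2 (-2.14 to 1.66) and 0.44 in TF group 3 (-1.46 to 2.34). With 3 arrays per group at this signal, the values were compatible with any change within these intervals. The log2 change of TF group 3 was -0.36 after scaling to the spikes.

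Myoz2, or calsarcin, binds α-actinin and the phosphatase calcineurin at the Z-disc. Its log2 signals were 3.28, 3.36 and 4.23 in the negative control, 5.84, 5.71 and 5.63 in TF group 1, 6.94, 6.56 and 6.59 in TF group 2, with 5.48, 4.36 and 4.56 in TF group 3. No 2 groups overlapped, and TF group 2 was the highest. Against the negative control the log2 change was 2.10 in TF group 1 (SE 0.32, at least 1.65-fold, limma adjusted p = 0.00057), 3.08 in TF group 2 (at least 3.24-fold, limma adjusted p = 4.4e-05) and 1.18 in TF group 3 (limma adjusted p = 0.015). TF group 3 and the negative control both had mean signals below the floor, and the call of TF group 3 was lost without negative control replicate 1 or 2 (limma adjusted p of 0.056 and 0.055), with an offset of 50 (log2 change 0.33), with only these 2 groups in the fit (limma adjusted p = 0.083) and with scaling to the spikes (0.39). From TF group 2 to TF group 3, Myoz2 fell at least 3.24-fold (limma adjusted p = 0.0065), while TF groups 2 and 1 differed by 0.97 (limma adjusted p = 0.12).

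The titin gene Ttn encodes the elastic filament that sets the spacing of the sarcomere. Its brighter probe set had log2 signals of 4.54, 4.57 and 4.64 in the negative control, 5.66, 4.68 and 4.69 in TF group 1, 7.61, 7.70 and 7.63 in TF group 2, with 6.44, 5.87 and 5.81 in TF group 3. TF group 2 lay above all other arrays, TF group 3 came next, and 2 of the 3 arrays of TF group 1 lay just above the highest control array. The log2 change against the negative control was 0.42 in TF group 1 (SE 0.26, limma adjusted p = 0.24), 3.06 in TF group 2 (at least 6.26-fold, limma adjusted p = 1.1e-05) and 1.45 in TF group 3 (at least 2.06-fold, limma adjusted p = 0.0014). Scaled to the spikes, TF group 1 stood at -0.47 and TF group 3 at 0.66, no longer called.

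Between TF groups, Ttn rose 6.22-fold from TF group 1 to TF group 2 and fell 3.04-fold from there to TF group 3 (limma adjusted p of 0.00041 and 0.0050). The second probe set, with a mean log2 signal of 5.91 in TF group 2 and under the floor elsewhere, stood at least 1.88-fold above each of the other groups in TF group 2, and in TF group 3 it stood 0.22 above the negative control without a call. TF group 3 was 2.04-fold above TF group 1 on the brighter probe set (limma adjusted p = 0.028). That call was lost without TF group 1 replicate 2 or 3 or TF group 3 replicate 1 or 2, where the adjusted p ran from 0.051 to 0.097, and also with only these 2 groups in the fit (0.14), with scaling to the spikes (0.11), with an offset of 50 (log2 difference 0.48) and with the mean of probe sets (0.55).

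Lmod2, the cardiac leiomodin that lengthens thin filaments at their pointed ends, had log2 signals of 0.86, 3.39 and 1.15 in the negative control, 3.51, 1.51 and 3.32 in TF group 1, 6.80, 6.54 and 6.39 in TF group 2, with 3.53, 1.24 and 2.87 in TF group 3. The 3 arrays of TF group 2 were the ones above the floor. Lmod2 in TF group 2 was at least 2.98-fold above the control (limma adjusted p = 0.0011), TF group 1 (limma adjusted p = 0.024) and TF group 3 (limma adjusted p = 0.016). The call between TF groups 2 and 1 was lost without any 1 of TF group 1 replicates 2 and 3 and TF group 2 replicates 1, 2 and 3 (adjusted p of 0.051 to 0.081), and that between TF groups 3 and 2 without TF group 2 replicate 1 or 2 or TF group 3 replicate 2 (0.052 to 0.056). Both were also lost with scaling to the spikes (0.061 and 0.058).

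In the M-band, Myom1, the myomesin that cross-links thick filaments and binds titin, was called against the control in TF group 3 alone. Its log2 signals were 6.88, 6.75 and 6.81 in the negative control, 7.02, 7.26 and 7.61 in TF group 1, 6.70, 7.16 and 7.01 in TF group 2, with 8.51, 8.39 and 8.25 in TF group 3. The arrays of TF group 3 lay above the other 9. With all 7 factors Myom1 was 2.97-fold above the control (log2 change 1.57, SE 0.16, limma adjusted p = 4.2e-05), 2.69-fold above TF group 2 and 2.12-fold above TF group 1 (limma adjusted p of 0.00079 and 0.0021). In TF group 1 it passed the p but not the fold threshold (1.40-fold, limma adjusted p = 0.038), and in TF group 2 the log2 change was 0.14. With scaling to the spikes these were -0.41 and -0.59, the second then called lower (limma adjusted p = 0.047).

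Desmin, encoded by Des, forms the intermediate filaments around the Z-discs and is also made by smooth muscle. The brighter probe set had log2 signals of 6.75, 7.17 and 6.94 in the negative control, 7.47, 6.99 and 7.01 in TF group 1, 7.72, 7.49 and 7.67 in TF group 2, with 8.05, 8.003 and 8.05 in TF group 3. The arrays of TF group 3 lay highest and those of TF group 2 next, and TF group 1 overlapped the negative control. Against the control, Des rose 1.60-fold with 5 factors (log2 change 0.68, SE 0.15, limma adjusted p = 0.0043) and 2.12-fold with 7 (1.08, limma adjusted p = 0.00025), and TF group 3 was 1.84-fold above TF group 1 (limma adjusted p = 0.0038).

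The second probe set of Des was dim, with log2 signals from 4.11 to 5.68, and was called in no comparison, with changes of 0.25, 0.04 and -0.38 in TF groups 1 to 3. The 2 probe sets did not follow each other over the 12 arrays (Pearson r of -0.37), and TF group 3 had the lowest mean on the second (4.85). With the mean of both, Des was called neither in TF group 2 nor in TF group 3 against the control (0.36 and 0.35), nor in TF group 3 against TF group 1 (0.12), a call also lost with scaling to the spikes (limma adjusted p = 0.12). The call of TF group 2 was lost with median centring and quantile normalization (0.57 each), with an offset of 50 (0.51) and without negative control replicate 1 (0.57). Scaling to the spikes gave -0.69 in TF group 1, -0.06 in TF group 2 and 0.29 in TF group 3.

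Smpx encodes a small muscle protein found at the costamere and the Z-disc. Its log2 signals were 3.08, 3.10 and 4.71 in the negative control, 10.18, 10.26 and 10.14 in TF group 1, 11.95, 12.02 and 11.92 in TF group 2, with 11.35, 11.30 and 11.38 in TF group 3. No TF group overlapped another. Against the control this was a rise of at least 36.6-fold with 3 factors, 125-fold with 5 and 81.1-fold with 7 (log2 changes of 6.56, 8.34 and 7.71, SE 0.36, limma adjusted p of 9.3e-07, 1.8e-07 and 3.2e-07).

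Smpx rose 3.41-fold from TF group 1 to TF group 2 (limma adjusted p = 0.019). In TF group 3 it was 1.54-fold under TF group 2 and 2.22-fold over TF group 1, and neither difference passed (limma adjusted p of 0.37 and 0.069). The fit shares 1 spread over the 4 groups, and the SD of the negative control was 0.94 against 0.04 to 0.06 in the TF groups. Without negative control replicate 3, both differences were called (limma adjusted p of 0.00055 and 2.0e-05). Both were also called with only the 2 groups in the fit (0.010 and 0.0021) and with an offset of 50 (0.0015 and 1.2e-05). The difference between TF groups 3 and 1 was called with an intensity trend (0.013), array weights (0.045) and dim probe sets left out (0.0497). Under the 3 scalings neither was called. The call between TF groups 2 and 1 was lost without any 1 array of these groups (adjusted p of 0.055 to 0.065) and with scaling to the spikes (0.058).

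Ankrd1, also called CARP, is an ankyrin repeat protein that binds titin and also acts in the nucleus as a cofactor of transcription. It was bright in the negative control already, with log2 signals of 10.63, 10.68 and 10.65, and had 10.78, 10.81 and 10.82 in TF group 1, 12.00, 12.08 and 12.02 in TF group 2, with 12.60, 12.59 and 12.60 in TF group 3. The groups lay in that order without overlap. Against the control, Ankrd1 rose 2.60-fold with 5 factors and 3.85-fold with 7 (log2 changes of 1.38 and 1.94, SE 0.05, limma adjusted p of 5.4e-08 and 1.2e-08).

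TF group 1 was 1.11-fold above the negative control for Ankrd1 (limma adjusted p = 0.028), under the fold threshold, and stood at -0.75 and called lower after scaling to the spikes. TF group 2 was 2.34-fold above TF group 1 (limma adjusted p = 1.9e-06), and TF group 3 was 1.48-fold above TF group 2, just under the fold threshold (limma adjusted p = 0.00013). On the second probe set, which followed the first over the 12 arrays with a Pearson r of 0.997, that difference was 1.67-fold and called.

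**Figure D2:**
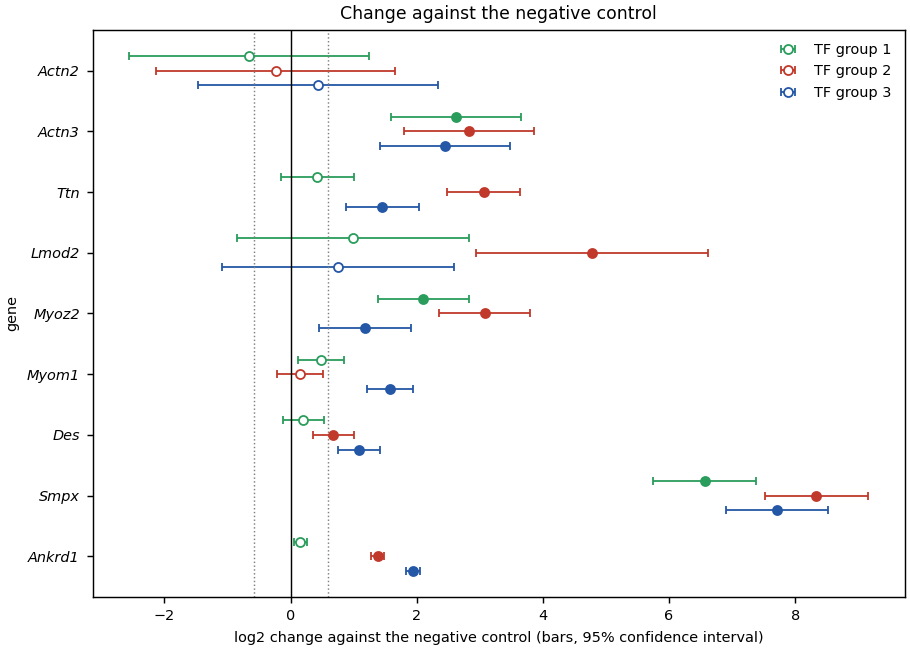
Log2 change of the 9 genes against the negative control (horizontal axis) in each TF group, with the 95% confidence interval of the limma fit on 12 arrays. Filled points were called and open ones not, and dotted lines mark a fold of 1.5 in each direction. Smpx has the longest shift in all 3 groups (6.56, 8.34 and 7.71), and with scaling to the spikes the points of Ttn, Myom1, Des and Ankrd1 in TF group 1, of Myom1 and Des in TF group 2 and of Actn2 and Lmod2 in TF group 3 fall below 0.

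Between factor sets, 4 of the 9 genes (Ttn, Lmod2, Smpx and Ankrd1) rose from TF group 1 to TF group 2 and 0 fell by limma (0 also at an unadjusted p under 0.05), against 2.08% of all genes called higher and 1.78% lower there, and the 4 became 2 without TF group 1 replicate 2 or 3 or any array of TF group 2. From TF group 2 to TF group 3, Myom1 was higher, against 2.32% of all genes, and Ttn, Lmod2 and Myoz2 were lower, against 1.7%. TF group 3 had 4 higher than TF group 1 (Ttn, Myom1, Des and Ankrd1) and 0 lower, against 3.26% and 3.05% of all genes, and at an unadjusted p under 0.05 limma had 1 lower, Myoz2 (log2 difference -0.92). The 4 became 2 with the mean of probe sets and with scaling to the spikes, since Ttn and Des lost their calls in both. These comparisons share arrays, so their calls are not independent of each other. Read by gene, Ttn, Lmod2 and Myoz2 were highest in TF group 2 and lower in TF group 3. Myom1 was highest in TF group 3, and so were Ankrd1 and the brighter probe set of Des, whose steps from TF group 2 to TF group 3 were 0.56 and 0.41 on the log2 scale and not called.

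**Figure D3:**
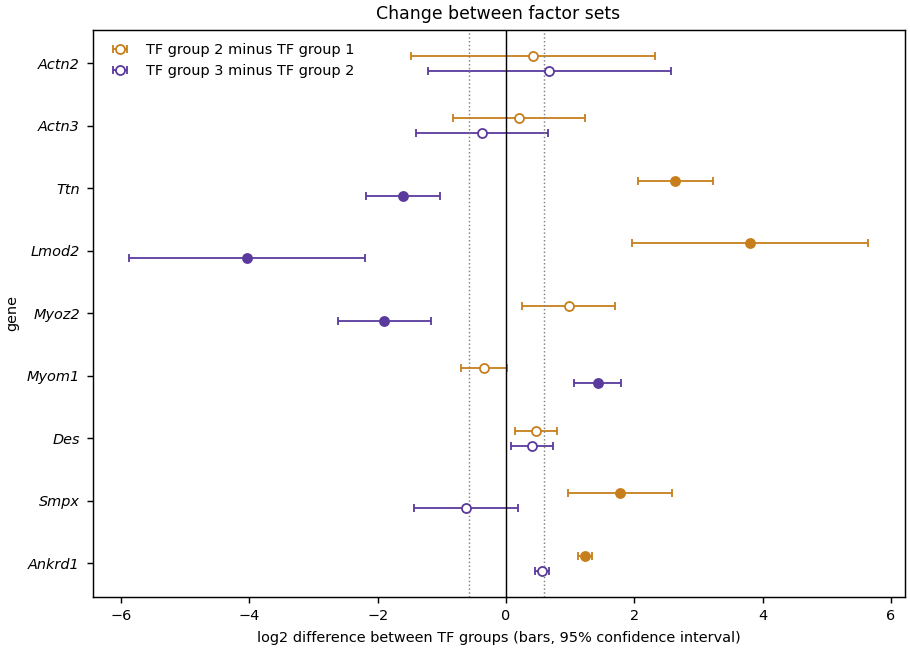
Log2 difference of TF group 2 minus TF group 1 and of TF group 3 minus TF group 2 for the 9 genes, with the 95% confidence interval of the limma fit on 12 arrays; filled points were called and dotted lines mark a fold of 1.5. Ttn (2.64 and -1.61) and Lmod2 (3.80 and -4.03) lie right of 0 in the first and left of it in the second, and Myom1 (-0.34 and 1.43) lies the other way.

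Upstream sequences are shown for Ttn, Lmod2 and Myoz2, which were called lower in TF group 3 against TF group 2, for Myom1, called in TF group 3, and for Smpx, which changed most. RefSeq's table of promoters (build GRCm38.p6) held 8 of the 9 genes. The 250 bases before the annotated start are given 5′ to 3′ on the strand of the gene, for Ttn (chr2:76982548-76982797, minus strand), Lmod2 (chr6:24597521-24597770, plus strand), Myoz2 (chr3:123034988-123035237, minus strand), Myom1 (chr17:71019307-71019556, plus strand) and Smpx (chrX:157698723-157698972, plus strand). The window of Myom1 lies within the span that the same build gives the gene, so it belongs to a start inside it. Capitals mark matches to a MEF2 site, to a CArG box (the site of SRF) or to a GATA site.
Ttn: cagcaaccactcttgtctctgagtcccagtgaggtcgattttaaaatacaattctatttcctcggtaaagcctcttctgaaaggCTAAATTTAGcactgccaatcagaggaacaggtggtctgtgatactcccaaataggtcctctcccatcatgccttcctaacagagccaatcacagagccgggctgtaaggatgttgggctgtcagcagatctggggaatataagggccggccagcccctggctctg
Lmod2: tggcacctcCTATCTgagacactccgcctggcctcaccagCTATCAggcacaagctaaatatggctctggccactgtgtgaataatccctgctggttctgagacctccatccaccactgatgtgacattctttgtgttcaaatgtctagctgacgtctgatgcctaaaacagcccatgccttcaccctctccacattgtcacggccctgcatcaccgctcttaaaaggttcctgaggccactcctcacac
Myoz2: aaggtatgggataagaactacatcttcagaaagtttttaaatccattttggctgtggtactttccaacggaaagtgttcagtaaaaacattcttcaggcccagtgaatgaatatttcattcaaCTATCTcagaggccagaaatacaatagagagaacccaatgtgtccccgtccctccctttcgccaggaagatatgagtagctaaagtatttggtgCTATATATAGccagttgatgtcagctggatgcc
Myom1: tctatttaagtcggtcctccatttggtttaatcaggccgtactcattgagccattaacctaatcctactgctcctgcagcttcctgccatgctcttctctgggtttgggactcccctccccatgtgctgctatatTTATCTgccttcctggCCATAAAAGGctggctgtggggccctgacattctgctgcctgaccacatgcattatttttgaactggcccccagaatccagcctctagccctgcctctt
Smpx: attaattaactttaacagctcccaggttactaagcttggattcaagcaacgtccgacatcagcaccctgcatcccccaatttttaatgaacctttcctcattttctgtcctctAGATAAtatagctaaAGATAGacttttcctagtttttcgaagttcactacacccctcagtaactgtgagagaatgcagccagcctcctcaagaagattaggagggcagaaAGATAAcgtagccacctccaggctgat

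The search ran over both strands and used the MEF2 site, the CArG box, the GATA site, the T-box site, written as AGGTGT, and the E-box, written as CANNTG. The GATA site was written as AGATAA. The other forms taken for it were AGATAG and, as the third, TGATAA and, as the fourth, TGATAG. A MEF2 match stood 166 to 157 bases before the start of Ttn (CTAAATTTAG) and 33 to 24 bases before that of Myoz2 (CTATATATAG). Of 32817 windows of the same length, 2.92% held such a match. A CArG match stood 99 to 90 bases before the start of Myom1 (CCATAAAAGG), against 1.47% of all windows. GATA matches stood in Lmod2 (2), Myoz2 (1), Myom1 (1), Smpx (3) and Ankrd1 (1), thus in 5 of 8 windows against 26.6% of all. The T-box letters were in none of the 8 windows and in 11.8% of all. E-boxes, not put in capitals above, were in 7 of the 8 windows and in 66.2% of all. No match overlapped another of these motifs. A match describes letters in a window, and binding was not measured.

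Other genes of the same structures were taken from a list of 58, of which 43 were measured. Their mean log2 signals in the negative control ran from 1.65 (Capn3) to 13.05 (Actn1). The list thus mixes genes already bright in these fibroblasts with genes below the floor, and its shares are not those of sarcomere-specific genes alone. They moved in both directions, and 9 were higher and 4 lower with 3 factors, 6 higher and 4 lower with 5, and 10 higher and 3 lower with 7. As shares, 20.9%, 14% and 23.3% were higher and 9.3%, 9.3% and 6.98% lower, against 15.1%, 15.3% and 14.7% higher and 8.93%, 10.1% and 9.84% lower over all genes, so in TF group 2 both shares were near the background. Their median log2 changes were -0.08, 0.02 and 0.13. Without negative control replicate 1, 1 was lower in TF group 3. Of the 43, 25 were called in no TF group, or 58.1% against 65.5% of all genes. Scaled to the spikes, the list turned to 3 higher and 25 lower, 4 and 20, and 5 and 18. Under that scaling the median change of all probe sets was -0.84, -0.69 and -0.74. The shares of all genes called were not counted there, so these counts are not read as a trait of the list.

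A few PDZ-LIM and actin-assembly genes of the Z-disc had large changes. Pdlim3, a PDZ-LIM protein (ALP) that binds α-actinin, had log2 signals of 3.49 to 4.77 in the negative control, 7.87 to 8.24 in TF group 1, 10.69 to 10.70 in TF group 2 and 10.99 to 11.06 in TF group 3. With 3, 5 and 7 factors it was at least 8.06-, 51.9- and 64.6-fold above the control. Fhod3, a formin that acts in sarcomere assembly, was 10.1-, 23.2- and 14.1-fold higher, and Ldb3, the PDZ-LIM protein ZASP or Cypher, 9.60-, 11.8- and 11.9-fold. These 3 genes were named for the largest called increases of the list. That their TF and control arrays did not overlap is therefore a description only.

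Smaller increases in all 3 TF groups were those of Csrp3, the muscle LIM protein (at least 2.31-, 3.24- and 3.12-fold), of Cap2, a cyclase-associated actin regulator (2.51-, 2.63- and 2.91-fold), and of Myoz3, a relative of Myoz2 (1.57-, 1.62- and 1.52-fold). Synpo, or synaptopodin, was 2.11-fold higher in TF group 1, and Cryab, the small heat shock protein αB-crystallin that binds desmin and titin, 1.92-fold in TF group 3. Of the genes lower than the control, Cavin4, a muscle cavin, was 2.33-, 2.03- and 2.29-fold lower in TF groups 1, 2 and 3. The LIM-only gene Fhl2 was 1.82- and 1.69-fold lower in TF groups 1 and 2, and its relative Fhl1 1.75- and 1.62-fold. Lmod1, the leiomodin of smooth muscle, went both ways, being 1.74-fold lower with 3 factors and 1.52-fold higher with 7, where it stood 2.24-fold above TF group 2. Hspb7, a cardiac small heat shock protein, was 1.63-fold lower in TF group 2, and Obsl1, an obscurin relative, 1.55-fold in TF group 3. Myoz1, of fast muscle, was at least 1.48-fold lower in TF group 3.

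**Figure D4:**
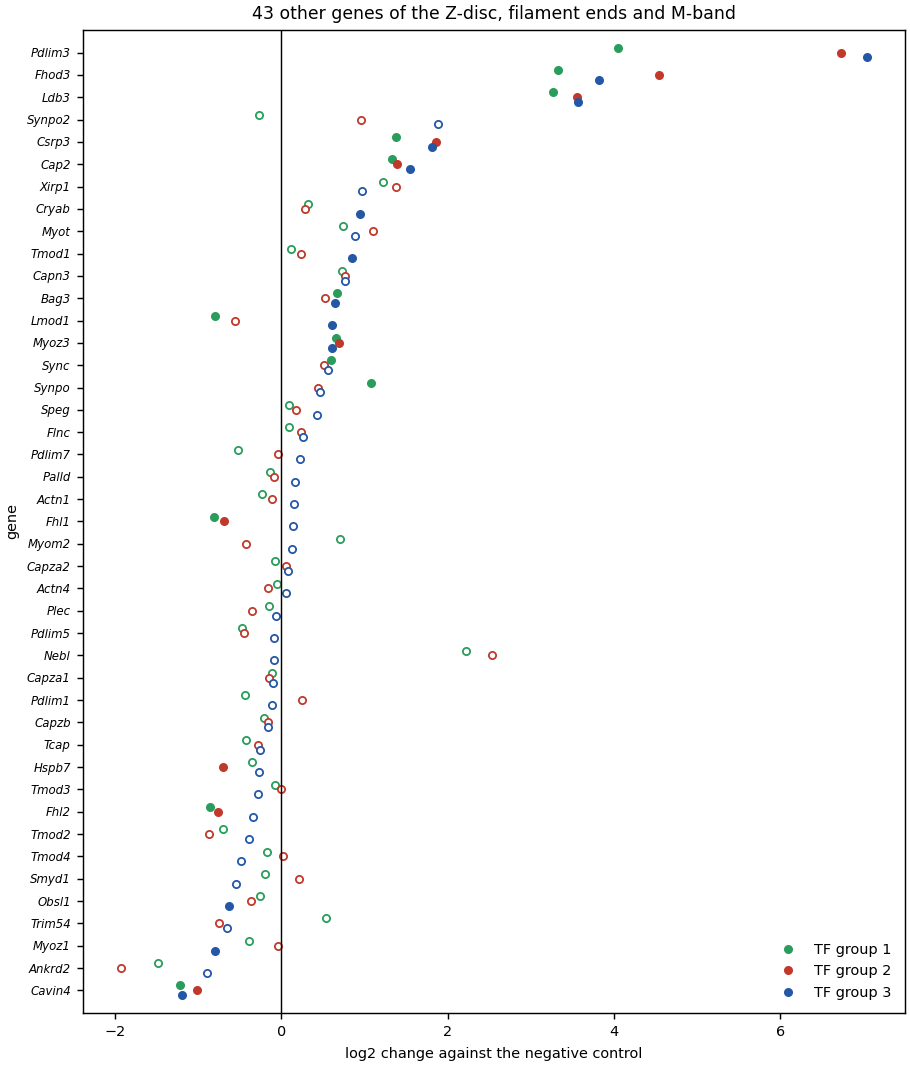
Log2 change against the negative control (horizontal axis) of the 43 measured genes of the wider list, ordered by TF group 3, with 1 point per TF group, filled where called. Pdlim3, Fhod3 and Ldb3 stand apart on the right (3.26 to 7.04) while the median of the list is -0.08, 0.02 and 0.13, and with scaling to the spikes most calls of the list are on the lower side (25, 20 and 18). Under that scaling the median change of all probe sets was -0.84, -0.69 and -0.74.

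Markers of other cells moved with the groups. The summed signal of 12 cardiomyocyte markers was 559 to 615 in the negative control, 4112 to 4487 in TF group 1, 4473 to 4724 in TF group 2 and 12277 to 13715 in TF group 3, with 5, 7 and 8 of the 12 called higher and 1, 0 and 0 called lower with 3, 5 and 7 factors, and Tnni3, cardiac troponin I, below the floor in all 4 groups. The brightest of them in each TF group were Tnnc1 (mean log2 signal 6.28 in the control, then 10.92, 10.85 and 11.87) and Tnnt2 (6.57, then 10.76, 10.99 and 12.43), which weigh most in the sum. Myh6 was below the floor except in TF group 3 (7.70). Myl2 was 5.43 in the control, then 4.34, 6.24 and 7.17, and Ryr2 stayed at 5.07 to 5.53. Of 17 skeletal muscle markers 2, 3 and 4 were higher (11.8%, 17.6% and 23.5%) and 1, 1 and 1 lower (5.88% each). In TF groups 1 and 2 these shares were near those of all genes. The summed signal of these markers was 1955 to 2088 in the negative control and 1117 to 1980 in the TF groups. Myog, Chrng, Myh4, Myh8, Tnnc2 and Tnnt3 were below the floor in all 4 groups. The mean log2 signal of Acta1, skeletal actin, was 10.58 in the negative control and 7.85, 7.91 and 9.19 in TF groups 1, 2 and 3. The fast myosins Myh1 (5.22 in the control, then 8.57, 9.80 and 8.70) and Myh2 (5.03, then 7.22, 7.37 and 6.33) were highest in TF group 2. Mylpf of the same list (4.90, then 4.82, 5.71 and 7.45) was highest in TF group 3, and Myh3 stayed near the floor (4.70 to 5.28). The sum of 8 smooth muscle markers, which include Des and Lmod1, was 30789 to 34955 in the negative control, 24372 to 26065 in TF group 1, 23979 to 27015 in TF group 2 and 37334 to 38111 in TF group 3, with 0, 1 and 3 higher and 4, 3 and 0 lower, and none was below the floor in any group. Within this list Cnn1, Tagln and Smtn were highest in the negative control (mean log2 signals of 11.19, 13.23 and 8.01). The others, Acta2, Actg2, Des, Lmod1 and Myh11, were highest in TF group 3. Of these, Myh11 stood at 5.86 in the control, then 5.83, 6.27 and 11.46, and Actg2 at 12.49, then 10.89, 11.29 and 13.03. The part of other cell types in the values of the 9 genes was not tested.

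The 12 fibroblast markers stayed bright, with sums of 79370 to 82641 in the negative control, 93448 to 99493 in TF group 1, 75202 to 80176 in TF group 2 and 72511 to 76146 in TF group 3, and 2, 1 and 0 higher and 1, 3 and 4 lower. Of 7 endothelial markers 1, 0 and 0 were higher and 1, 1 and 1 lower, with sums of 918 to 1023 in the negative control and 411 to 546 in the TF groups, and Pecam1 and Tie1 were below the floor in all groups. The sum followed Flt1 (mean log2 signal 9.65 in the control, then 8.26, 8.28 and 8.21), while the rest of the list stayed at 5.79 or less in every group. Of 7 macrophage markers 0 were higher and 0, 1 and 1 lower, with sums of 509 to 546 in the negative control and 390 to 540 in the TF groups, and Fcgr1 was below the floor in all groups. In a list of 7 genes 1 gene is 14.3%, so the endothelial and macrophage counts were near the shares of all genes.

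**Figure D5:**
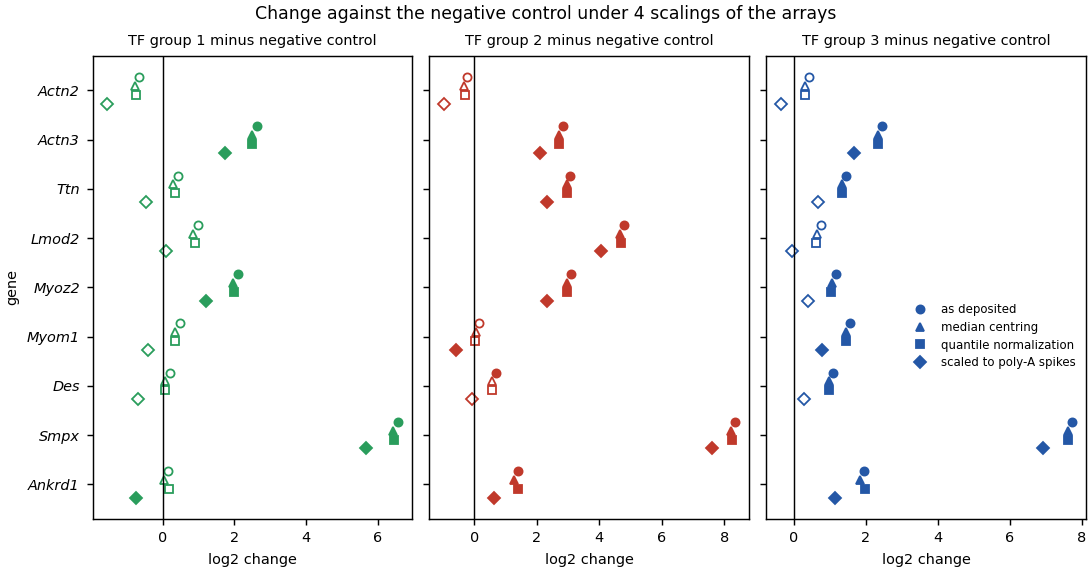
Log2 change of the 9 genes against the negative control (horizontal axes) in TF groups 1, 2 and 3 with the signals as deposited, each array centred on its median, quantile normalized, or scaled to the poly-A spikes; filled marks were called. Median centring and quantile normalization lie close to the deposited values, with the call of Des in TF group 2 lost (0.57 each), and scaling to the spikes moves all 9 genes left, with Ankrd1 in TF group 1 and Myom1 in TF group 2 called lower (-0.75 and -0.59).

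The genes whose signal over the 12 arrays was most like that of a member were found by Pearson r, given as a description, since the points fall into 4 groups that share their factors. For Smpx these were Abat (r = 0.996), Syt11 (0.995) and Timp3 (0.994). For Ankrd1 they were Nap1l2 (0.992), Cox17 (0.983) and Atp1b1 (0.982), and for Des Ndufa9 (0.963), Ppme1 (0.956) and Nap1l2 (0.956). Ttn was most like Arhgap17 (0.978), Bex2 (0.969) and Dtd1 (0.966), and Lmod2 like Tcaf2 (0.937), Glul (0.919) and Nnmt (0.918). Actn3 was most like Acadl (0.977), a probe set of Ldb3 (0.976) and Acp2 (0.975), Myoz2 like Ablim1 (0.967), Shisa2 (0.964) and Lipa (0.959), and Myom1 like Efhd1 (0.969), Rnf19a (0.967) and Rarres2 (0.958). For Actn2 the nearest were Smarcal1 (0.921), Ddx18 (0.896) and Nfe2l3 (0.890), all of which were dim. Among the members, r was 0.93 for Des and Ankrd1, 0.86 for Ttn and Lmod2 and 0.86 for Actn3 and Smpx.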

How the data were processed

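The 12 Affymetrix Mouse Genome 430A 2.0 arrays held 4 groups of 3 cultures, grouped by the labels. The authors deposited 1 linear intensity per probe set and array, scaled to a shared trimmed mean; the submitters' notes and the methods name RMA and Partek, without versions, which give log2 values, so how this intensity was made is not known. Detection calls were not used here. Nothing in the sources used here gives a scan date or batch.

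The intensity was taken to log2 without further scaling, although the tests had been set down for either scale. The 64 control probe sets were left out, and of the 22626 others 20380 had 1 gene symbol in the platform annotation of 2016, 691 several and 1555 none. limma 3.58.1 in R 4.3.3 (lmFit, contrasts.fit, eBayes) fitted 1 mean per group over all 12 arrays, and 6 comparisons were adjusted by Benjamini and Hochberg over all probe sets. Calls needed an adjusted p under 0.05 and a fold over 1.5. The brightest probe set stood for a gene. The steps were tested on simulated data.

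Named genes were the 9 members, up to 6 called genes per direction and TF group of the list of 58, and for each member the 3 genes of highest r. The members, the list and the marker lists (cardiomyocyte, skeletal and smooth muscle, fibroblast, endothelial, macrophage) were chosen with earlier results of these data known. Alternatives were a replicate block, an intensity trend, array weights, only 2 groups in the fit, unmoderated analysis of variance with unadjusted p, an offset of 50, leaving out dim probe sets, 3 scalings, other fold thresholds, the mean of probe sets, and each array left out in turn.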

Additional observations from a re-analysis of the deposited data

How the results depend on the processing

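The poly-A spike signal was 0.81 (log2) higher on the TF arrays. It also varied among the control arrays (7.79, 6.99 and 7.26, against 8.03 to 8.28 on the TF arrays), which limits values scaled to it. Scaling to the spikes moved most values. It gave log2 changes below 0 in TF group 1 for Ttn (-0.47), Myom1 (-0.41), Des (-0.69) and Ankrd1 (-0.75), in TF group 2 for Myom1 (-0.59) and Des (-0.062), and in TF group 3 for Actn2 (-0.36) and Lmod2 (-0.044). The count of members called was then 1 lower in TF group 1, 1 lower in TF group 2, 4 higher in TF group 3, 2 higher in TF group 2 against TF group 1 and 2 higher in TF group 3 against TF group 1, and that of the other list 3 higher and 25 lower in TF group 1, 20 lower in TF group 2 and 5 higher and 18 lower in TF group 3. Without a fold threshold, 5 members were higher in TF group 1 and 2 in TF group 3 against TF group 2, and the other list had 10, 10 and 6 lower and, in TF group 2, 11 higher. With a fold over 2 it had 1 lower in each TF group and 5 higher in TF group 3. An offset of 50 left 1 of the other list lower in TF group 3 and put Actn2 at 0.014 in TF group 2. The mean of probe sets gave 2 members higher in TF group 3 against TF group 2 and 2 against TF group 1, and put Des at -0.0046 between TF groups 3 and 2. Unmoderated analysis of variance with unadjusted p called 1 member lower in TF group 3 against TF group 1, Myoz2. Replicate numbers did not pair the arrays (18 same-number pairs, r of -0.02 to 0.05). With the replicate number as a block, members higher in TF group 2 against TF group 1 went from 4 to 3, since Lmod2 lost its call (adjusted p = 0.060), and no other member's call changed. Leaving out 1 array at a time, members higher ranged from 2 to 4 in TF group 2 against TF group 1 (2 without TF group 1 replicate 2 or 3 or any array of TF group 2) and from 1 to 2 in TF group 3 against TF group 2 (2 without TF group 2 replicate 2), members lower from 0 to 1 in TF group 3 against TF group 1 (1 without TF group 3 replicate 1), and the other list from 1 to 4 lower in TF group 3 (1 without negative control replicate 1). Actn2 then ranged from -0.91 to 0.78 in TF group 2, from -0.13 to 0.81 in TF group 3, from -0.25 to 1.44 between TF groups 2 and 1 and from -0.34 to 1.34 between TF groups 3 and 2, and Lmod2 from -0.87 to 0.42 between TF groups 3 and 1. The cause of these shifts was not tested. Signals below 32 limit Actn2, Lmod2, Myoz2 and the second probe sets of Ttn and Des.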
